A study of Mus musculus with 6 samples.

Results

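Cytosolic ribosomal protein genes are described here in mouse hematopoietic cells transformed by the MLL-AF9 fusion, an oncogene of acute myeloid leukemia. Members were the rows whose symbol names a protein of the large subunit (Rpl, Rplp) or the small subunit (Rps, Rpsa), without pseudogene names and without the Rps6k kinases, that reached 1 CPM (reads scaled to library size) in at least 3 of the 6 libraries. The name pattern matched 83 of 24062 rows and 79 of them passed the limit, 48 of the large and 31 of the small subunit. All 79 were among the 12126 genes with enough reads to be tested.

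Ribosomes translate every mRNA of a cell, and their proteins are made in the cytosol, carried to the nucleolus and joined there with ribosomal RNA. Most ribosomal protein mRNAs begin with a C followed by a run of pyrimidines, the terminal oligopyrimidine (TOP) motif, through which mTOR and Larp1 control their translation and stability. Blood formation is known to be sensitive to the dose of these proteins: inherited loss of a copy of many of them causes Diamond-Blackfan anemia, and loss of RPS14 is part of the 5q deletion of myelodysplastic syndrome. RNA counts measure the mRNA, not its translation and not the number of ribosomes.

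The groups were 3 libraries labelled A20 WT (genotype A20 +/+) and 3 labelled A20 KO (genotype A20 f/f). Cells of both groups started as lineage-negative hematopoietic cells of Rosa Cre-ER mice, received MLL-AF9 by retrovirus, grew with IL-3, IL-6 and SCF, and were given 1 µM 4-hydroxytamoxifen for 48 h. Rosa is a locus active in most cell types; Cre and tamoxifen were shared by both groups, and no culture without tamoxifen is analysed here. The labels give neither the age of the donor mice nor whether the libraries of a group came from separate donors or cultures, so the p-values reflect only how far these libraries scatter, which may be technical. Tnfaip3 encodes A20, which edits ubiquitin chains and holds back NF-κB, and the design compares cells with and without it.

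The targeted gene went against its label. Tnfaip3 stood at 8.10 ± 0.65 CPM in WT-labelled and 84.4 ± 13.8 CPM in KO-labelled libraries (SD, n = 3), where CPM are scaled by the TMM method from here on. The counts are per gene, so they do not show whether the transcripts lack the floxed part. The cause of the mismatch with the label was not tested. Directions below therefore refer to the libraries labelled WT and KO. Xist, expressed from the inactive X chromosome of females, was at 564 to 2109 CPM in WT-labelled and 0 to 4.77 CPM in KO-labelled libraries, and the Y-linked Ddx3y at 0 to 0.80 against 78.5 to 89.2 CPM, so donor sex and A20 label cannot be told apart. The 10 markers of hematopoietic and immature myeloid cells summed to 2242 to 5719 CPM in WT-labelled and 3158 to 4160 CPM in KO-labelled libraries. All 10 averaged at least 1 CPM over the 6 libraries, but they did not move together. Cd34 averaged 613 and 1.63 CPM in the WT-labelled and KO-labelled groups, and Mpo ran from 142 to 299 against 0.180 to 0.563 CPM. Kit, Elane and Lyz2 also averaged lower in the KO-labelled group. Ptprc, Spi1, Itgam, Csf1r and Cd33 averaged higher there, with Csf1r at 24.8 and 207 CPM and Itgam at 369 and 543 CPM. Summed markers of other cells stayed low: erythroid at most 1.26, B cell 2.18, T cell 4.78 and stromal 5.43 CPM in any library, with Hba-a1, Hbb-bs, Cd3e and Dcn at 0 in all 6, while megakaryocyte markers summed to 26.6 to 41.1 against 0.856 to 1.07 CPM. Libraries held 16113320 to 25415274 counted reads. Replicate 1 stood apart in each group: the chi-square per degree of freedom between libraries was 205.2 and 231.3 for WT-labelled replicate 1 against 2 and 3, and 25.2 between 2 and 3, and the KO-labelled values were 94.5, 79.7 and 2.37. Results are therefore given for all 6 libraries, for replicates 2 and 3 alone, and for the replicate 1 pair.

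Promoter sequences of 59 of the 79 members were found in RefSeq (GRCm38.p6), 71 windows in all because some genes have several starts. The windows below run from 30 bases before the annotated start to the first 15 bases of the transcript. Capitals mark a run of pyrimidines that begins with C and lies at or within 10 bases of the start. The first 4 genes show the TOP motif exactly at the start, and the other 4 do not. Genes of both kinds are described with values below, Rps15a and Rps18 among those with the motif at the start. The windows shown are a selection from the 71. Whether the motif goes with a difference between the groups was not tested.
Rpl15: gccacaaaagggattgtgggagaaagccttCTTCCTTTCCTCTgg
Rps6: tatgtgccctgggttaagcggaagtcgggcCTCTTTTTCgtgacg
Rps15a: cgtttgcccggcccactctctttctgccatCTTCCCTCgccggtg
Rps18: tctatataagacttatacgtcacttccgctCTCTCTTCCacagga
Rps7: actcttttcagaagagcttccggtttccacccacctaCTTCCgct
Rpl22l1: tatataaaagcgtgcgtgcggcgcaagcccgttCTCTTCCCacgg
Rpl7l1: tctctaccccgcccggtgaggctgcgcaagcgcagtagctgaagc
Rpl3l: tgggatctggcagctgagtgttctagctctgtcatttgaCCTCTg
These windows lie at chr14:18270972-18271016 (minus strand) for Rpl15, chr4:86857353-86857397 (minus) for Rps6, chr7:118116133-118116177 (minus) for Rps15a and chr17:33955651-33955695 (minus) for Rps18. The others are chr12:28635939-28635983 (minus) for Rps7, chr3:28805478-28805522 (plus) for Rpl22l1, chr17:46782642-46782686 (minus) for Rpl7l1 and chr17:24727796-24727840 (plus) for Rpl3l.

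The pyrimidine start was more frequent in this family than among genes in general. A C at the start followed by at least 4 pyrimidines was found in 13 of the 71 member windows (18.3%) and in 2.51% of all 32851 windows. Allowing the run to begin up to 10 bases away from the annotated start gave 38 of 71 (53.5%) against 30.7%. The 13 with the exact start were Rpl14, Rpl15, Rpl28, Rpl35, Rpl35a, Rpl38, Rplp2, Rps6, Rps10, Rps15a, Rps18, Rps21 and Rps27. In the window from 250 bases before to 50 after the start, counting both strands and counting each motif on its own even where matches overlap, CCGGAAG, the letters bound by ETS factors, occurred in 25 windows (35.2% against 8.86%). The NF-κB pattern, GGG and CC spaced by any 5 bases, occurred in 48 (67.6% against 50.8%). A match shows only that these letters are present, and the annotated start may differ from the start used in these cells.

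Ribosomal protein mRNA was among the most abundant RNA of these cells. Mean levels over all 6 libraries ran from 2.31 to 3108 CPM with a median of 1046 CPM, compared with 34.5 CPM over all tested genes. Of the members, 75 lay between 176.9 and 3108 CPM. The other 4 were under 10 CPM: Rpl3l, a muscle-type paralog of Rpl3, and Rps27, Rpl30 and Rpl34, which are proteins of the cytosolic ribosome. Just outside the limit were Rpl26, with 1 read in WT-labelled replicate 1, Rpl10l, with 1 read in KO-labelled replicate 2, and Rpl39l and Rps4l, with no read in any library, where the 3 reads that a count of 0 allows are worth 0.118 to 0.186 CPM. How reads that align to several places were counted is not given in the sources used here. Rps27 shares 98.7% of its 31-base stretches with transcripts of genes elsewhere in the genome, Rpl26 65.6%, Rpl30 53.15%, Rpl34 48.0% and Rpl3l 0%. Rpl30 also shares 31.1% with the overlapping gene D730044K07Rik. Among abundant members Rpl21, at 282 to 1610 CPM, shares 47.4%. Whether shared sequence bears on the low counts was not tested.

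Per kilobase of transcript, which allows for length but not for shared sequence, Rpl13a was highest at 6068 CPM per kb. Rplp1 followed at 4660, Rps18 at 3440, Rps24 at 3022 and Rps29 at 2919 CPM per kb. The part of 31-base stretches found elsewhere differed between them, such as 87.7% for Rps18 and 39.2% for Rps29. These are means over all 6 libraries, and the order differed between libraries: in WT-labelled replicate 1 Rplp1, at 5628 CPM per kb, was above Rpl13a, at 5295, and in KO-labelled replicate 1 Rpl41 (3748) and Rps3a1 (3733) were above Rps18 (2969). Rpl13a, a large-subunit protein also known as a translational silencer in interferon-treated myeloid cells, stood at 2621, 3775 and 2748 CPM in WT-labelled and 3027, 2866 and 2986 CPM in KO-labelled libraries. Its KO-labelled values lay inside the WT-labelled range. The Rpl13a gene (chr7:45125558-45128761, minus strand) shares 75.5% of its 31-base stretches with the overlapping gene model Gm45713, so its reads and those of that model can be hard to assign.

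Together the members took 11.1, 9.26 and 7.24% of counted reads in the WT-labelled replicates 1, 2 and 3, and 9.28, 7.40 and 7.34% in the KO-labelled ones. The highest library was WT-labelled replicate 1 and the lowest WT-labelled replicate 3, so the KO-labelled values lay inside the WT-labelled range. Group means were 9.20 ± 1.93 and 8.01 ± 1.10% (SD, n = 3), a difference of -1.19 percentage points (exact two-sided permutation p = 0.7; 3 against 3 libraries allow no p below 0.1). Leaving out WT-labelled replicate 1 gave a difference of -0.239 percentage points, leaving out KO-labelled replicate 1 -1.83, and leaving out WT-labelled replicate 3 -2.17. The large-subunit genes made up 5.11 ± 1.19 and 4.51 ± 0.70% (exact p = 0.7) and the small-subunit genes 4.09 ± 0.76 and 3.50 ± 0.41% (exact p = 0.4). Rows of ribosomal RNA moved as well: they took 0.216, 2.00 and 2.92% in the WT-labelled and 0.390, 0.320 and 0.411% in the KO-labelled libraries, and with them left out of the total the difference was -1.30 percentage points (exact p = 0.2).

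**Figure D1:**
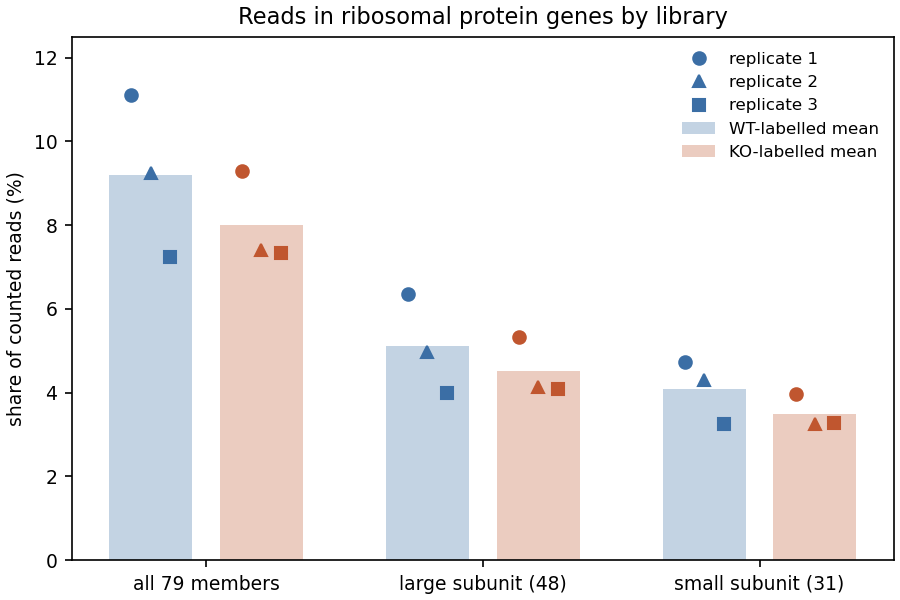
Share of counted reads (%, y axis) in all 79 ribosomal protein genes and in the 48 large- and 31 small-subunit genes; points are the 6 libraries with a symbol for each replicate number, and bars are group means of 3. The KO-labelled points, from 7.34 to 9.28% for all members, lie between the lowest and highest WT-labelled points of 7.24 and 11.1%.

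With all 6 libraries, ribosomal protein genes did not pass the test in either direction. Of the 79 members, 0 were called in edgeR's quasi-likelihood test (Benjamini-Hochberg adjusted p under 0.05 over all tested genes), whereas 27.3% of all tested genes were called, 13.7% higher and 13.7% lower in the KO-labelled libraries. Without adjustment 1 member had p under 0.05, compared with 39.8% of tested genes. DESeq2 called 1 member, Rpl3l, lower (background 33.7%, of which 17.0% higher and 16.7% lower) and limma-voom 0 (background 27.1%, 14.3% higher and 12.9% lower). Without WT-labelled replicate 1 edgeR called 2 lower, Rpl3l and Rpl22l1, and 0 higher (background 42.8%, 22.0% higher and 20.8% lower). The 95% interval of the fold change lay within 2-fold in both directions for 47 of 79 members (59.5%; 54.6% of tested genes), so for the other 32 a 2-fold difference could not be set aside. The spread was wide: the standard error had a median of 0.26 on the log2 scale among members and 0.21 among all tested genes.

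The fitted log2 fold changes of the members ran from -2.12 to 0.55 with a median of -0.21, and 68 of 79 were below 0 (86.1%). Over all tested genes the median was -0.04 and 52.8% were below 0. Large-subunit and small-subunit members had medians of -0.21 and -0.19. This small offset depended on the libraries, since the median was 0.07 when WT-labelled replicate 1 was left out and -0.44 when WT-labelled replicate 3 was. The groups did not overlap for 4 members. Rpl32, Rps18 and Rps25 were lower in every KO-labelled library (3.80%; background 23.5%) and Rps27 higher in every one (1.27%; background 24.1%).

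**Figure D2:**
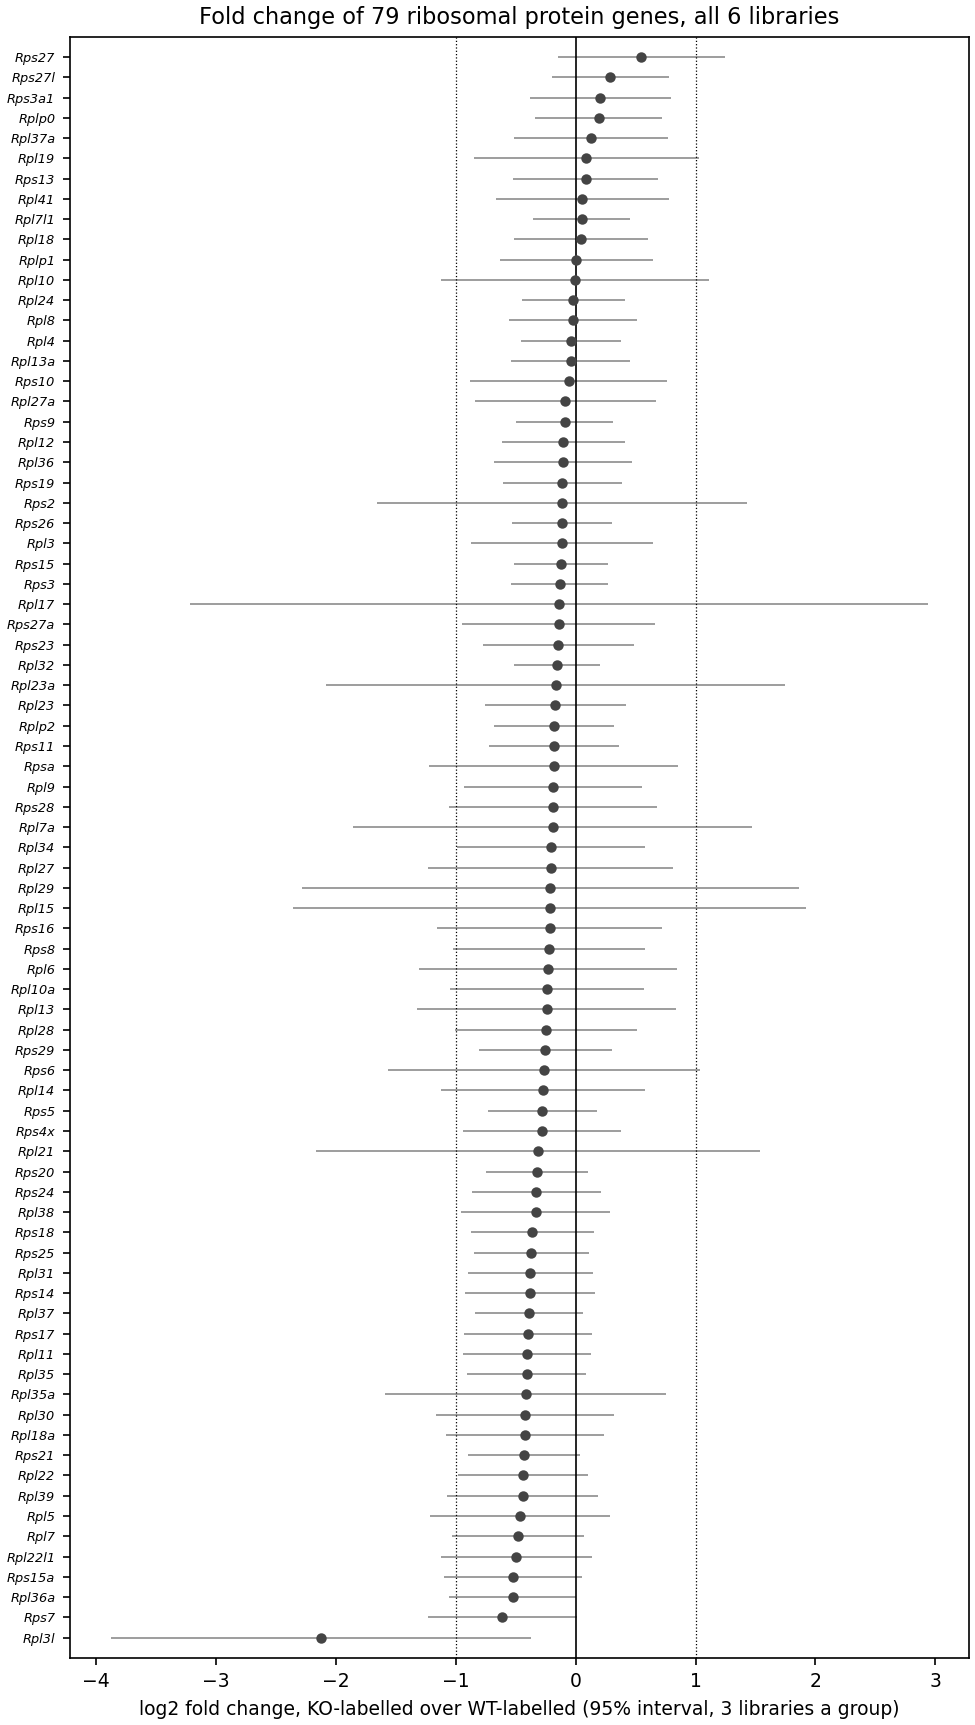
Fitted log2 fold change of each of the 79 members, KO-labelled over WT-labelled (x axis), with its 95% interval over 3 libraries a group; dotted lines mark 2-fold. Points crowd around the median of -0.21, and the widest intervals belong to Rpl17, Rpl15, Rpl29, Rpl23a and Rpl21.

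Rps18 is a protein of the head of the small subunit. Its level was 1905, 2590 and 1621 CPM in WT-labelled and 1565, 1600 and 1596 CPM in KO-labelled libraries. The KO-labelled libraries were close to each other and all just below the lowest WT-labelled library, and the difference did not pass (log2 fold change -0.36, SE 0.22; edgeR adjusted p = 0.26). Rps25, which initiation from some internal ribosome entry sites requires, had 1353, 1840 and 1210 CPM against 1132, 1120 and 1154 CPM. Rpl32 showed the narrowest separation, with 1270, 1303 and 1192 CPM against 1124, 1191 and 1063 CPM, and its edgeR adjusted p was 0.50. Rps27 was at only 3.01, 2.07 and 2.09 CPM in WT-labelled and 3.65, 3.68 and 3.16 CPM in KO-labelled libraries (log2 fold change 0.55, SE 0.30; edgeR adjusted p = 0.22).

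The lowest fold changes among abundant members were those of Rps7, Rpl36a and Rps15a. Rps7, a small-subunit protein that also binds Mdm2, lies at chr12:28630854-28635953 on the minus strand (GRCm38). Its level was 2168, 2716 and 1640 CPM in WT-labelled and 1792, 1178 and 1298 CPM in KO-labelled libraries. KO-labelled replicate 1 fell inside the WT-labelled range, and replicates 2 and 3 below it. The log2 fold change of Rps7 was -0.61 (SE 0.26; 95% interval -1.23 to 0.01; edgeR adjusted p = 0.13). For Rps15a (chr7:118104372-118116188, minus strand) the WT-labelled libraries had 1225, 1456 and 924 CPM and the KO-labelled libraries 1046, 694 and 767 CPM, which overlapped in the same way (log2 fold change -0.52, SE 0.24; edgeR adjusted p = 0.16).

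Other abundant members were measured closely enough to bound the difference. Rpl4, a large-subunit protein lining the exit tunnel, had 2835, 2605 and 2384 CPM in WT-labelled and 2372, 2649 and 2584 CPM in KO-labelled libraries, with a 95% interval of the log2 fold change from -0.46 to 0.38. Rps9, a small-subunit protein near the mRNA entry, had 1989, 1889 and 1667 CPM against 1874, 1677 and 1653 CPM, with an interval from -0.50 to 0.31. The groups overlapped in both, and a change of 2-fold lies outside either interval. At the other extreme Rpl17, a protein at the tunnel exit, had an interval from -3.22 to 2.94, which leaves its direction unknown with all 6 libraries.

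Rpl5 and Rpl11 form, with 5S ribosomal RNA, the particle that joins the large subunit and that binds Mdm2, and so stabilizes p53, when it is left free. Rpl5 (chr5:107900502-107909005, plus strand) was at 2699, 1899 and 1382 CPM in WT-labelled and 1949, 1190 and 1199 CPM in KO-labelled libraries. Rpl11 (chr4:136028265-136053428, minus strand) was at 1996, 1993 and 1329 CPM and at 1554, 1205 and 1249 CPM. In both genes KO-labelled replicates 2 and 3 lay below the WT-labelled range and replicate 1 inside it, so the groups overlapped. Their log2 fold changes were -0.46 (SE 0.32) and -0.41 (SE 0.23), with edgeR adjusted p of 0.33 and 0.23.

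The P-stalk of the large subunit, where elongation factors dock, is built from Rplp0, Rplp1 and Rplp2. Rplp0 (chr5:115559467-115563727, plus strand) had 3658, 2615 and 2436 CPM in WT-labelled and 3655, 3234 and 3050 CPM in KO-labelled libraries, with replicate 1 equal in both groups and replicates 2 and 3 higher in the KO-labelled group. Rplp1 had 2808, 2575 and 1581 CPM against 2808, 2071 and 2107 CPM, and Rplp2 953, 632 and 656 CPM against 742, 655 and 581 CPM. All 3 overlapped between groups, with log2 fold changes of 0.19, 0.00 and -0.18 and edgeR adjusted p of 0.58 to 0.99. Rpsa, the small-subunit protein also known as the laminin receptor, was the member with the highest level in any library, 4741 CPM in WT-labelled replicate 1. The others were 2309 and 1722 CPM in WT-labelled and 3736, 2041 and 1951 CPM in KO-labelled group (log2 fold change -0.18, SE 0.44).

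A few ribosomal proteins have a paralog encoded by another gene, and 4 of the 7 in the list were expressed. Rpl22l1, which can replace Rpl22 in the ribosome, was at 145, 293 and 183 CPM in WT-labelled and 171, 129 and 141 CPM in KO-labelled libraries. In replicate 1 the KO-labelled library was the higher, and in replicates 2 and 3 the lower. Rpl22 itself, an RNA-binding protein needed for lymphoid development, had 795, 1295 and 860 CPM against 636, 741 and 797 CPM, with the 2 lowest KO-labelled libraries below every WT-labelled library. Neither passed with all libraries (log2 fold changes -0.49 and -0.44; edgeR adjusted p = 0.22 and 0.20).

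Rpl3l was the member with the largest fitted difference and a low level. Its counts correspond to 0.75, 4.94 and 5.61 CPM in WT-labelled and 1.17, 0.56 and 0.84 CPM in KO-labelled libraries, so WT-labelled replicate 1 resembled the KO-labelled libraries and replicates 2 and 3 stood above them. It reached 1 CPM only in those replicates and in KO-labelled replicate 1. The log2 fold change was -2.12 (SE 0.74; edgeR adjusted p = 0.075), past the threshold with DESeq2 (adjusted p = 0.018) and without WT-labelled replicate 1 (edgeR adjusted p = 0.0018). Rpl7l1, a paralog of Rpl7 in the nucleolus, had 221, 166 and 163 CPM against 162, 205 and 202 CPM. Rps27l, a p53-inducible paralog of Rps27, had 284, 305 and 184 CPM against 303, 302 and 340 CPM. Its level per length was 573 CPM per kb, and that of Rps27 8.53 CPM per kb. Rps27 shares 98.7% of its 31-base stretches with genes elsewhere and Rps27l 29.6%. With the counting of reads that align to several places not known, their levels may not be comparable. Neither Rpl7l1 nor Rps27l passed (log2 fold changes 0.05 and 0.29, edgeR adjusted p = 0.87 and 0.34).

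Other members with known roles in blood or in NF-κB signalling did not pass either. Rps14, the gene of the 5q deletion, had 1521, 2038 and 1266 CPM in WT-labelled and 1426, 1128 and 1155 CPM in KO-labelled libraries, with KO-labelled replicates 2 and 3 below the WT-labelled range (log2 fold change -0.38, SE 0.23; edgeR adjusted p = 0.26). Rps19, the gene most often mutated in Diamond-Blackfan anemia, had 1395, 1308 and 932 CPM against 1269, 1067 and 1032 CPM. Rps3, which is also a DNA-binding partner of the NF-κB subunit p65, had 2131, 2389 and 1944 CPM against 1907, 1983 and 1998 CPM, and its interval of -0.54 to 0.27 kept the log2 difference well under 2-fold. Rpl38, needed for translation of Hox mRNAs, had 582, 487 and 329 CPM against 472, 308 and 329 CPM. Of the 18 tested genes mutated in Diamond-Blackfan anemia, 0 were called with all libraries (background 27.3%). Their median log2 fold change was -0.29, beside -0.04 over all tested genes.

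On the X chromosome, where donor sex cannot be told apart from the label, Rpl10, Rpl36a, Rpl39 and Rps4x were members. Rpl10 was at 1835, 841 and 733 CPM in WT-labelled and 1833, 817 and 750 CPM in KO-labelled libraries, nearly equal at each replicate number. Rpl36a had 761, 843 and 550 CPM against 610, 440 and 446 CPM, and Rpl39 966, 1108 and 739 CPM against 936, 545 and 589 CPM. In both genes KO-labelled replicates 2 and 3 lay below the WT-labelled range. Rps4x had 2445, 1587 and 1298 CPM against 1773, 1354 and 1264 CPM. Log2 fold changes were 0.00 for Rpl10, -0.53 for Rpl36a, -0.44 for Rpl39 and -0.28 for Rps4x, with edgeR adjusted p from 0.13 to 1.00.

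In replicates 2 and 3 alone the median standard error of members was smaller, 0.14 on the log2 scale, and 11 of the 79 members passed (13.9%; background 52.9%). With 2 libraries a group, edgeR called 3 members higher in the KO-labelled libraries (3.80%; background 25.8%): Rps2 (log2 fold change 0.49, adjusted p = 0.0069), Rplp0 (0.30, 0.040) and Rpl7l1 (0.29, 0.0098). It called 8 lower (10.1%; background 27.1%): Rpl3l (-2.95, adjusted p = 6.2e-04), Rpl22l1 (-0.84, 0.015), Rps7 (-0.83, 0.021), Rpl39 (-0.72, 0.017), Rps15a (-0.72, 0.025), Rpl36a (-0.67, 0.025), Rpl17 (-0.48, 0.0017) and Rpl5 (-0.47, 0.039). Apart from Rpl3l, every one of these fitted differences was less than 2-fold. Counts of 9 of the 11 are less certain, since at least 20% of their 31-base stretches also occur in genes elsewhere in the genome. Rps2, Rpl17, Rps7, Rpl36a and Rpl22l1 have 13, 6, 2, 2 and 1 near-copies, and the shared part is 53.3% for Rplp0, 49.0% for Rpl5, 28.7% for Rpl7l1 and 23.7% for Rpl39. Rpl5 also shares 45.8% with the overlapping gene Fam69a. The exceptions are Rpl3l and Rps15a. For Rps15a the shared part, 8.14%, was taken over a transcript of 5130 nt. Such a length can lower the share, so this call is not free of the same doubt. The 95% interval lay within 2-fold for 69 of 79 members (87.3%; 64.0% of tested genes). The median log2 fold change was -0.12, beside -0.02 over all tested genes. Of the Diamond-Blackfan anemia genes, 3 of 18 were lower (Rps7, Rps15a and Rpl5, background 27.1%) and 0 higher (background 25.8%).

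WT-labelled replicates 2 and 3 were themselves unlike in these genes. Of the 79 members, 68 were higher in WT-labelled replicate 2 than in 3 (86.1%; 50.2% of tested genes), by a median of 0.37 on the log2 scale, while the median over all tested genes was 0.00. The KO-labelled replicates 2 and 3 differed by a median of 0.03. Rps7, with 2716 and 1640 CPM in WT-labelled pair and 1178 and 1298 CPM in KO-labelled pair, had the largest log2 ratio between the WT-labelled pair, 0.73, and one of -0.14 between the KO-labelled pair. Rows of ribosomal RNA also differed between the WT-labelled pair, as given above; their part in these values was not tested.

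The replicate 1 pair, 1 library a group and so without a test, showed a small shift in the same direction for most members. In KO-labelled replicate 1, 70 of 79 members were lower than in WT-labelled replicate 1 (88.6%; 52.3% of all tested genes), by a median log2 ratio of -0.26 (-0.04 over all tested genes). Only Rpl30 was past 2-fold (1.27%; background 26.8%), with a log2 ratio of -1.02 at 8.39 and 3.88 CPM. Across the 79 genes, which are not independent replicates, the log2 ratio of the replicate 1 pair and that of replicates 2 and 3 had a Spearman correlation of -0.04. The direction was the same for 55 of 79 members (69.6%; 66.6% of tested genes). Rps2, Rpl7l1, Rpl22l1 and Rpl3l, all called in replicates 2 and 3, had the opposite sign in replicate 1, with log2 ratios of -0.50, -0.45, 0.23 and 0.42.

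**Figure D3:**
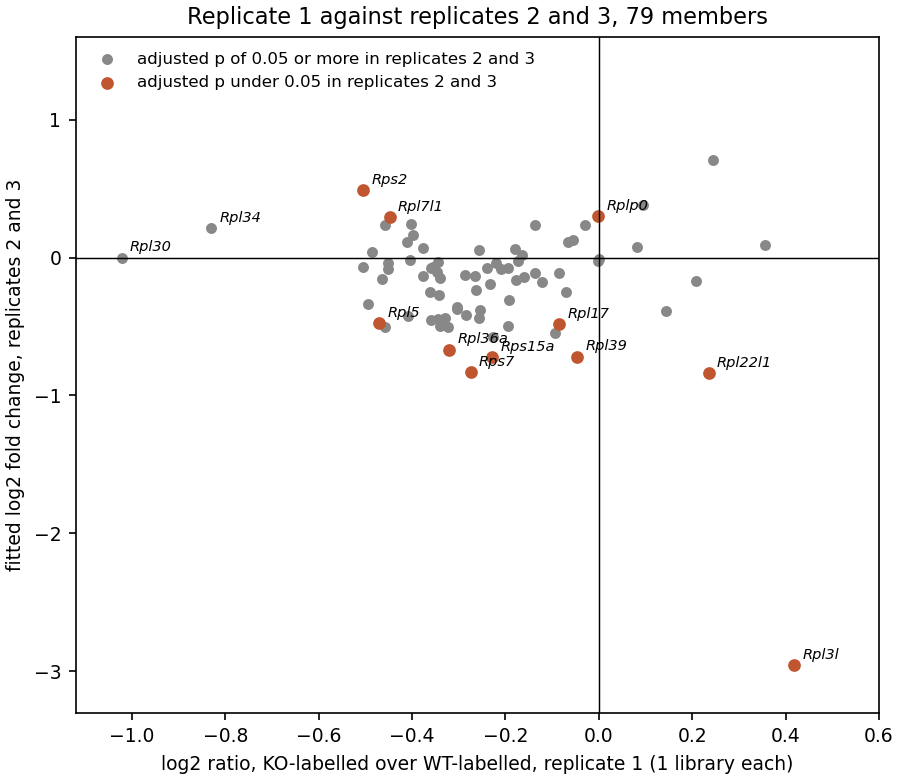
Log2 ratio of KO-labelled to WT-labelled replicate 1 (x axis, 1 library each) against the fitted log2 fold change in replicates 2 and 3 (y axis, 2 libraries a group) for the 79 members; orange points passed the adjusted p threshold in replicates 2 and 3. Most points lie left of 0 on the x axis, 70 of 79, and the 11 orange points lie on both sides of 0 on the y axis.

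Replicate 1 differed from replicates 2 and 3 more than the groups differed from each other. Of the members, 64 were higher in replicate 1 in both groups (81.0%; background 22.1%), and 11 were at least 2-fold higher in both (13.9%; background 0.726%). The median log2 ratio of replicate 1 to the mean of replicates 2 and 3 was 0.54 in the WT-labelled and 0.44 in the KO-labelled libraries, beside 0.01 and 0.00 over all tested genes. Rpl17 was the extreme, with 1356, 135 and 130 CPM in WT-labelled and 1279, 97.5 and 94.5 CPM in KO-labelled libraries, a 10.2-fold and a 13.3-fold excess in replicate 1. Rpl15, a large-subunit protein, had 1693, 369 and 266 CPM against 1440, 284 and 279 CPM, and Rpl21 had 1610, 416 and 322 CPM against 1270, 337 and 282 CPM. Rps2, which lies at the mRNA entry channel of the small subunit, had 3264, 775 and 694 CPM against 2300, 1094 and 988 CPM. Rps6, the small-subunit protein phosphorylated by the S6 kinases downstream of mTOR, had 2250, 796 and 723 CPM against 1734, 714 and 687 CPM. In these 5 genes replicate 1 was high in both groups, and a group difference of the size seen in replicates 2 and 3 was small beside it. Outside the family Gapdh, a glycolytic enzyme gene, behaved alike at 2645, 181 and 167 CPM against 2716, 254 and 248 CPM.

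Members with near-copies elsewhere in the genome had the larger excess in replicate 1. Ribosomal protein genes are known for their many pseudogenes, and 42 of the 79 members had at least 1 near-copy, where a near-copy is another annotated gene that does not overlap the member and whose transcripts hold at least 50% of the member's 31-base stretches. For the 37 members without a near-copy the median excess in replicate 1 was 1.23-fold in the WT-labelled and 1.19-fold in the KO-labelled libraries. It was 1.51-fold and 1.37-fold for the 28 members with 1 to 3 near-copies, and 2.78-fold and 2.31-fold for the 14 with 4 or more. Rps2 and Rpl7a had 13 near-copies, Rpl10 had 7, and Rpl15 and Rpl17 had 6. Rpl21, with no near-copy at that limit and 47.4% of its stretches found elsewhere, was an exception at 4.39-fold and 4.12-fold. Rps18, with 4 near-copies and 87.7% of its stretches found elsewhere, was one in the other direction at 0.93-fold and 0.98-fold.

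Among the 75 members of at least 100 CPM, the Spearman correlation between the number of near-copies and the replicate 1 excess was 0.53 in the WT-labelled and 0.57 in the KO-labelled libraries, a description across genes that share the same libraries. With the log2 fold change of KO-labelled over WT-labelled libraries it was 0.03. The 114 rows with pseudogene names were taken from all gene families, not only from ribosomal protein genes. They took 0.0251, 0.0825 and 0.0857% of reads in the WT-labelled and 0.0258, 0.0435 and 0.0426% in the KO-labelled libraries, lowest in replicate 1 of each group. By symbol, none of the near-copies of Rps2, Rpl7a, Rpl10, Rpl15 and Rpl17 had a row of its own. Whether the pseudogene rows hold these near-copies under other names is not known, so the rows cannot be read as a measure of them. Whether reads of members were assigned differently in replicate 1 was not tested. With the genes that share at least 20% of their stretches left out, 25 members remained in the fit, with 0 called and a median log2 fold change of -0.32.

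**Figure D4:**
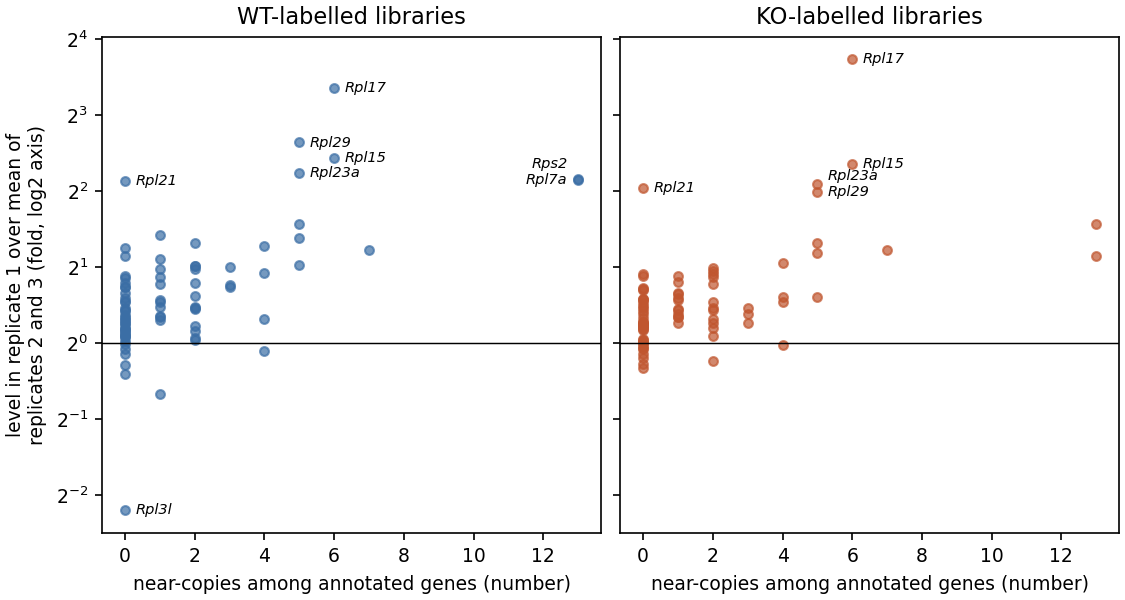
Level in replicate 1 over the mean of replicates 2 and 3 (y axis, log2 scale, fold) against the number of near-copies of each member among annotated genes (x axis), WT-labelled libraries left and KO-labelled right. Medians rise with the number of copies in both panels, and the highest points are those of Rpl17 at 10.2-fold and 13.3-fold, with Rpl21 high at 0 copies and Rps18 near 1-fold at 4.

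Genes that work with the ribosome were read from 6 lists. Of the 3 tested ribosomal proteins with other kinds of symbol, 0 passed: Fau, a fusion of a ubiquitin-like protein and a small-subunit protein, was at 644 ± 126 and 709 ± 186 CPM, and Gnb2l1 (Rack1), a scaffold on the small subunit, at 2167 ± 188 and 2123 ± 47.2 CPM. Translation factors and other genes with TOP mRNAs gave 1 higher and 1 lower of 17 (background 13.7% in each direction). Eif3f, a subunit of initiation factor eIF3, rose from 338, 300 and 311 CPM to 471, 423 and 401 CPM (log2 fold change 0.45, SE 0.14; edgeR adjusted p = 0.0495, a call lost under 10 of 20 other settings). Nap1l1, a histone chaperone, fell from 718, 412 and 434 CPM to 287, 290 and 290 CPM (log2 fold change -0.85, SE 0.23, edgeR adjusted p = 0.034). This call was lost under 5 and kept under 14 of the other settings, and the fit without genes of shared sequence did not test Nap1l1. The median log2 fold change of these TOP genes was -0.26, beside -0.04 over all tested genes. A median below 0 was not particular to them: it was -0.087 for the assembly factors and -0.12 for the RNA polymerase I genes. For the mitochondrial ribosomal proteins it was 0.085.

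Mitochondrial ribosomal proteins, which build the separate ribosome that translates mitochondrial mRNAs, gave 4 higher and 0 lower of 77 with all libraries, fewer than the background of 13.7% in each direction. Mrps21 rose from 70.0, 57.8 and 43.7 CPM to 143, 115 and 110 CPM (log2 fold change 1.10, SE 0.20; edgeR adjusted p = 0.0075). Mrpl53, Mrpl24 and Mrpl17 rose by 0.66, 0.53 and 0.60 on the log2 scale (edgeR adjusted p = 0.0067, 0.018 and 0.048). These calls were lost under 1, 6 and 7 of the other settings that tested the gene, and that of Mrps21 under 1. In all 4 genes every KO-labelled library was above every WT-labelled one. In replicates 2 and 3 alone 36 of 77 were higher and 0 lower (background 25.8% and 27.1%). Without WT-labelled replicate 1, 29 were higher (background 22.0%), while in the replicate 1 pair 58 of 77 were lower in the KO-labelled library (background 52.3%). Their summed share of reads, 0.442 ± 0.057 and 0.486 ± 0.039%, did not differ beyond the spread (exact permutation p = 0.3).

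Factors that assemble ribosomal subunits in the nucleolus gave 0 calls among 58 with all libraries (background 27.3%), and their direction in the replicate 1 pair was the opposite of that in replicates 2 and 3. Ncl (nucleolin) had 2200, 989 and 1117 CPM in WT-labelled and 917, 1422 and 1397 CPM in KO-labelled libraries. Ddx21, a nucleolar RNA helicase, had 435, 204 and 231 CPM against 240, 287 and 287 CPM. WT-labelled replicate 1 was the highest library for both genes, and KO-labelled replicates 2 and 3 lay above their WT-labelled counterparts. In the replicate 1 pair 57 of 58 were lower in the KO-labelled library (background 52.3%), with a median log2 ratio of -0.76. In replicates 2 and 3 edgeR called 40 higher and 1 lower (background 25.8% and 27.1%), with a median log2 fold change of 0.36; without WT-labelled replicate 1 it called 19 higher (background 22.0%).

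RNA polymerase I, which transcribes ribosomal RNA, gave 0 calls among 11 genes with all libraries (background 27.3%), and 5 higher and 1 lower in replicates 2 and 3 (background 25.8% and 27.1%). Polr1d, a subunit shared with RNA polymerase III, had 171, 89.3 and 88.1 CPM against 185, 144 and 129 CPM, and Ubtf, a factor of the ribosomal RNA promoter, 337, 221 and 212 CPM against 201, 255 and 251 CPM. Regulators gave 1 higher and 1 lower of 15 with all libraries (background 13.7% in each direction). Deptor, an inhibitor that binds mTOR, fell from 43.8, 50.2 and 54.9 CPM to 8.74, 11.4 and 10.7 CPM (log2 fold change -2.27, SE 0.17; edgeR adjusted p = 1.7e-04), with the groups far apart. Eif4ebp2, a repressor of cap-dependent initiation, rose from 91.2, 86.0 and 93.6 CPM to 105, 130 and 130 CPM (log2 fold change 0.43, SE 0.13; edgeR adjusted p = 0.046, a call lost under 9 of 20 other settings).

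Levels of Myc, which drives transcription of ribosome genes, were picked out after the values were seen: 259, 152 and 148 CPM in WT-labelled and 141, 205 and 206 CPM in KO-labelled libraries. As for Ncl, WT-labelled replicate 1 was highest and KO-labelled replicate 1 lowest, and KO-labelled replicates 2 and 3 were above WT-labelled replicates 2 and 3. With all libraries the log2 fold change of Myc was -0.02 (edgeR adjusted p = 0.97), and in replicates 2 and 3 it was 0.44 (edgeR adjusted p = 0.0019).

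**Figure D5:**
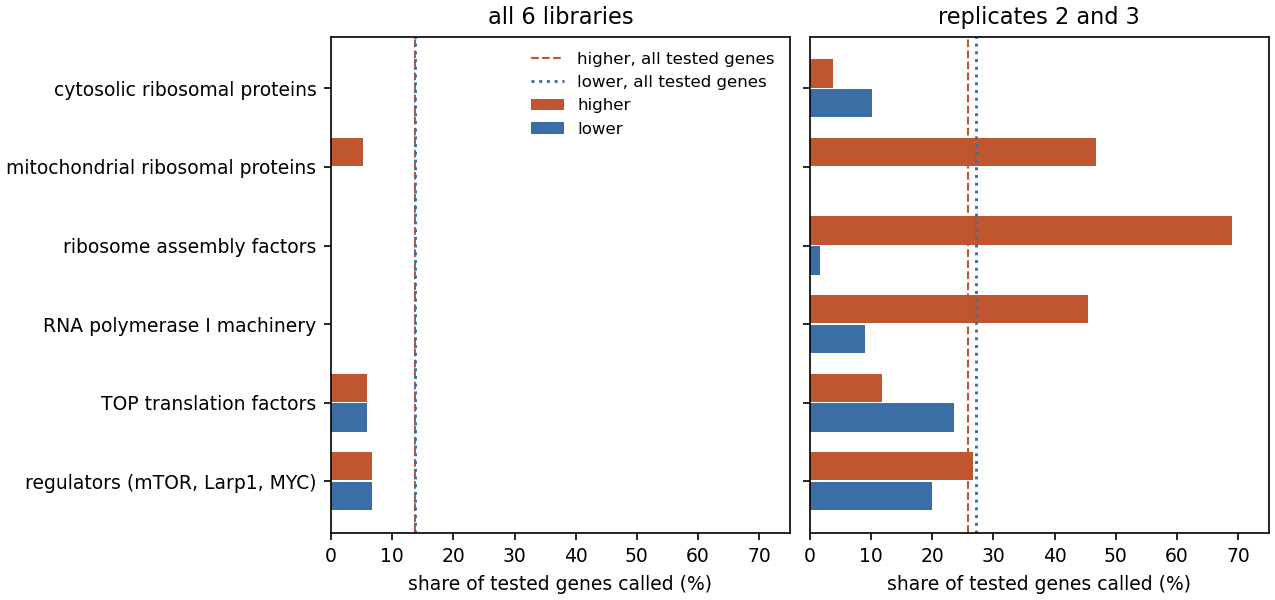
Share of tested genes (%, x axis) called higher or lower in the KO-labelled libraries by edgeR at an adjusted p under 0.05, for the ribosomal protein genes and 5 lists of genes that work with the ribosome, in all 6 libraries (left) and in replicates 2 and 3 (right); vertical lines give the shares of all tested genes. Ribosomal protein genes reach 3.80% higher and 10.1% lower in replicates 2 and 3, below the lines at 25.8 and 27.1%, whereas the mitochondrial ribosomal proteins, the assembly factors and the RNA polymerase I genes lie above the line for higher genes there, and the regulators, at 4 of 15 genes, just above it.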

How the data were processed

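Per the labels' protocols, total RNA of 6 libraries went through the stranded TruSeq mRNA preparation, a kit that enriches polyadenylated transcripts. The authors deposited raw counts per gene and library. The submitters' processing notes name FastQC 0.11.7, HISAT2 2.0.5 (build mm10) and featureCounts 1.5.2; annotation, strand setting and the treatment of reads that align to several places were not given in the sources used here (multi-mapped reads bear on genes with copies).

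The contrast, KO-labelled minus WT-labelled, was tested in edgeR 4.0.16 (R 4.3.3) by the robust quasi-likelihood method with TMM scaling, the default low-count filter, no covariate and Benjamini-Hochberg adjustment over all tested genes at 0.05. The fit covered the whole table and only the rows of interest are printed. Ratios without a test used a pseudocount of 0.5 CPM. Alternatives, 20 in all, were other scalings and filters, DESeq2 1.42.0, voom of limma 3.58.1, a non-robust fit, a replicate block, a term for replicate 1, replicates 2 and 3 alone or summed, removal of genes with shared sequence, and leaving out each library. Simulated data for this contrast (12005 genes, 100 changed 2-fold and 100 changed 4-fold) gave 35 and 90 recovered by edgeR with 9 false calls in 134, 24 and 87 by limma-voom with 5 in 116, and 55 and 97 by DESeq2 with 37 in 189.

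The members and the gene lists were chosen with earlier results of these data known, so no test over a list was made. Members named with values were those called, those just inside or outside the CPM limit, the 5 highest per kilobase, the members on chromosome X and those in lists by role (paralogs, P-stalk and Rpsa, the 5S particle, blood or NF-κB); of the lists of other genes, up to 4 called genes or the 2 most abundant were named. Rpl32, Rps25, Rps7, Rps15a, Rpl4, Rps9, Rps6, Rpl15, Rpl21, Rpl17, Rpl7a and Rps2 were chosen after their all-library values were seen. Positions, transcript lengths and shared 31-base stretches came from GENCODE M21, in Python 3.11.15. Length is that of the coding transcript nearest the gene's median, which is long for Rps15a (5130 nt) and Rps20 (3706 nt) and lowers their level per kilobase. It can also lower the shared part and the number of near-copies of both genes. Promoter windows came from RefSeq. Rack1 was found under its older symbol Gnb2l1. Some genes of the name pattern and of the lists are not reported here.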

Additional observations from a re-analysis of the deposited data

How the results depend on the processing

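With edgeR, 0 members were higher or lower under every scaling, filter and dispersion setting, with limma-voom and with a term for replicate 1. DESeq2 gave 1 lower (background 33.7% in either direction) and replicates 2 and 3 alone 3 higher and 8 lower (background 52.9%). Leaving out each library in turn gave 0 higher and 0 to 2 lower, the 2 without WT-labelled replicate 1 (Rpl3l and Rpl22l1, background 42.8%). Replicates 2 and 3 summed gave 0. The members' median log2 fold change was -0.21 with all 6 libraries and ran from -0.44 to 0.07 when libraries were left out, so its sign depended on the libraries. The median log2 level of members had a pooled SD of 0.43 between libraries of a group. The difference in read share ran from -2.17 to -0.239 percentage points. Depth leaves little counting error for the abundant members and more for Rpl3l, Rps27, Rpl30 and Rpl34.

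Over all tested genes replicate numbers did not pair the libraries: same-numbered libraries deviated with correlations of -0.05, -0.11 and 0.04. Among the 79 members, however, the log2 excess of replicate 1 over replicates 2 and 3 had a Spearman correlation of 0.72 between the groups, a description across genes. With the replicate block 0 members were called and 989 genes were higher and 1034 lower over the whole table (16.7%), beside 1660 and 1656 without it; the mitochondrial ribosomal proteins gave 2 higher, the TOP genes 0 higher and 0 lower and the regulators 0 higher.

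Mitochondrial ribosomal proteins higher were 4, and 9 with DESeq2, 36 in replicates 2 and 3, 0 with these summed, and 2 to 29 without each library (lower 0 to 1). TOP genes higher were 1, and 2 in replicates 2 and 3 and 0 with these summed, without the low-count filter, with the non-robust fit and with TMM computed without members, and 0 to 1 without each library. TOP genes lower were 1, and 4 in replicates 2 and 3, 0 with these summed and 0 to 2 without each library. They were also 0 without genes of shared sequence, a fit that did not test Nap1l1. Assembly factors higher were 0, and 40 in replicates 2 and 3 and 0 to 19 without each library; lower were 0, and 1 in replicates 2 and 3, with DESeq2 and with upper-quartile scaling. RNA polymerase I genes were 5 higher and 1 lower in replicates 2 and 3, and 0 to 2 higher and 0 to 1 lower without each library. Regulators higher were 1, and 4 in replicates 2 and 3 and 0 with these summed, with library totals, with upper-quartile scaling and without the low-count filter, and 0 to 3 without each library; lower were 1, and 3 in replicates 2 and 3, and 1 to 2 without each library.

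All alternatives were compared for the genes named by a set rule, not for those picked after their values were seen. There 698 values kept direction and side of the threshold, 12 passed it newly, 39 lost it and 33 changed sign. Among the members named by rule the sign changed for Rpl10 (0.014 with DESeq2 and with RLE factors, 0.0019 with limma-voom, 0.035 summed). It also changed for Rpl13a (0.058 summed), Rpl34 (0.21 in replicates 2 and 3) and Rpl7l1 (-0.039 summed). The log2 fold change of Rplp1 was -0.0062 with library totals, -0.0066 with upper-quartile scaling and -0.0087 in replicates 2 and 3. In replicates 2 and 3 it also changed for Ddx21 (0.38), Ncl (0.40), Ubtf (0.21) and Gnb2l1 (0.017). Without each library in turn, sign changes gave ranges of -0.53 to 0.53 for Rpl10, -0.14 to 0.13 for Rpl13a, -0.48 to 0.16 for Rpl34, -0.030 to 0.21 for Rpl7l1, -0.21 to 0.17 for Rplp1, -0.29 to 0.040 for Rplp2, -0.27 to 0.0086 for Rps19, -0.46 to 0.026 for Rps4x and -0.55 to 0.36 for Rpsa. Outside the members they were -0.30 to 0.32 for Ddx21, -0.091 to 0.31 for Fau, -0.10 to 0.032 for Gnb2l1, -0.42 to 0.25 for Ncl and -0.24 to 0.13 for Ubtf. Members outside this comparison changed sign too, such as Rps2, from -0.11 with all 6 libraries to 0.49 in replicates 2 and 3. Fitted log2 fold changes were below 0 for 68 of the 79 members with all 6 libraries and for 58 in replicates 2 and 3. The cause of these changes was not tested.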
